A study of Mus musculus with 16 samples.

Results

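The 9 genes described here are liver genes that are set by the pattern of growth hormone secretion: Cyp2d9, Cyp4a12a, Elovl3 and Hsd3b5, which belong to the pulsatile male pattern, and Cyp2a4, Cyp2b9, Cyp2b13, Sult3a1 and Cux2, which belong to the near-continuous female pattern. They were chosen by symbol from background knowledge, not by a measured value, though with earlier results of these data known. They are 9 of the 35502 genes in the deposited count table. Livers of 16 mice were profiled by RNA sequencing, each mouse as a separate library, in 4 groups of 4: mature LERKO, mature control, immature LERKO and immature control. LERKO mice are liver-specific knockouts of oestrogen receptor alpha and carry Cre, and control mice are floxed animals without Cre. The labels give the stage as mature or immature and name sexual maturity. Sex, age and Cre driver of the mice, and whether the stage is that of the knockout or of tissue collection, were not given in the sources used here. Library numbers below are accession order within a group and pair nothing across groups. In the submitters' sample numbering all mature samples come before all immature ones. Any difference of collection or handling along that order cannot be told apart from the stage.

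In rodents the pituitary releases growth hormone in separated pulses in males and almost continuously in females. The hormone binds its receptor Ghr on hepatocytes and activates the kinase Jak2 and the transcription factor Stat5b, so that pulses activate Stat5b intermittently and continuous hormone activates it at a steadier, lower level. In the mouse this sets the sex-biased expression of steroid and drug-metabolizing enzymes, together with repressors such as Bcl6 (male-biased) and Cux2 (female-biased). Oestrogen receptor alpha is present in hepatocytes, and sex steroids also shape the pituitary's secretion pattern.

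Esr1, the gene of the knocked-out receptor, had 13.9 to 19.1 CPM (the gene's share of a library's counts, scaled so that libraries compare, with TMM factors) in mature LERKO livers, against 66.7 to 110 CPM in mature controls. It had 10.7 to 16 CPM in immature LERKO livers, against 55.3 to 89 CPM in immature controls, so its level followed the genotype labels. All 5 female-type genes were detected in all 16 libraries, at 6.7 CPM or above, whereas of the male-type genes Cyp4a12a was at or under 1 count in every library. The Y-linked genes Ddx3y, Kdm5d, Eif2s3y and Uty had 0 counts in all 16 libraries, and Xist, the X-inactivation RNA, had 469 to 735 CPM in 15 of them. In immature LERKO library 2 Xist had 0.48 CPM. Mature LERKO library 4 stood apart by acute-phase transcripts, whose sum over 15 listed genes was 121000 CPM there and 14400 to 20500 CPM in the others. The same library was the lowest of 16 for stellate cell markers (100 CPM, against 238 to 515 CPM) and endothelial markers (113 CPM, against 158 to 347 CPM). It was the highest for Kupffer cell markers (529 CPM, against 183 to 464 CPM). The stages differed in controls too. Stellate markers summed to 398 to 515 CPM in mature and 244 to 328 CPM in immature controls. Endothelial markers summed to 248 to 347 CPM and 161 to 244 CPM in these groups. Kupffer cell markers summed to 337 to 464 CPM and 183 to 363 CPM there, which overlap. In LERKO livers the stages overlapped for each of these lists. The genotypes differed in mature livers as well. Stellate markers summed to 100 to 374 CPM in mature LERKO livers, below all mature controls, and to 292 CPM or above there outside library 4. Endothelial markers (113 to 275 CPM) and Kupffer cell markers (296 to 529 CPM) of mature LERKO livers overlapped with those of mature controls. In immature livers the genotypes overlapped for each of these lists. The part of these differences in the results below was not tested. Skeletal muscle transcripts (12 listed genes) summed to 819, 347 and 57.9 CPM in mature control libraries 1, 2 and 4 and to 159 CPM in immature LERKO library 4, against 0.502 to 2.18 CPM in the other libraries. Hepatocyte markers summed to 127000 to 177000 CPM. In mature LERKO library 4 this sum, 141000 CPM, joins opposite moves. Alb was at 61700 CPM there, against 83900 to 119000 CPM in the others, and Trf at 51600 CPM, against 16400 to 19600 CPM. In bulk tissue, fewer cells of a type and less RNA per cell cannot be told apart.

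None of the 8 testable genes passed an adjusted p of 0.05 between LERKO and control livers at either stage or between stages in either genotype (edgeR's quasi-likelihood test, Benjamini-Hochberg over 13379 genes). What the data do show is a wide spread of some of these genes among livers of 1 group, and a lower level of Cyp2d9 in mature than in immature LERKO livers that passed with DESeq2 but not with edgeR. Per kilobase of merged exons, the median CPM over 16 libraries was 609 for Cyp2a4, 235 for Cyp2b9, 198 for Cyp2b13, 27 for Sult3a1, 23.5 for Cyp2d9, 6.28 for Cux2, 0.769 for Elovl3, 0.313 for Hsd3b5 and 0 for Cyp4a12a. The female-type genes Cyp2a4, Cyp2b9 and Cyp2b13 thus led the order. The ranges over libraries of Cyp2b9 (156 to 291) and Cyp2b13 (34.4 to 324 CPM per kilobase) overlapped, as did those of Sult3a1 (5.79 to 74.7) and Cyp2d9 (7.51 to 39.7) and those of Elovl3 (0.288 to 1.45) and Hsd3b5 (0.0382 to 19.6).

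**Figure D1:**
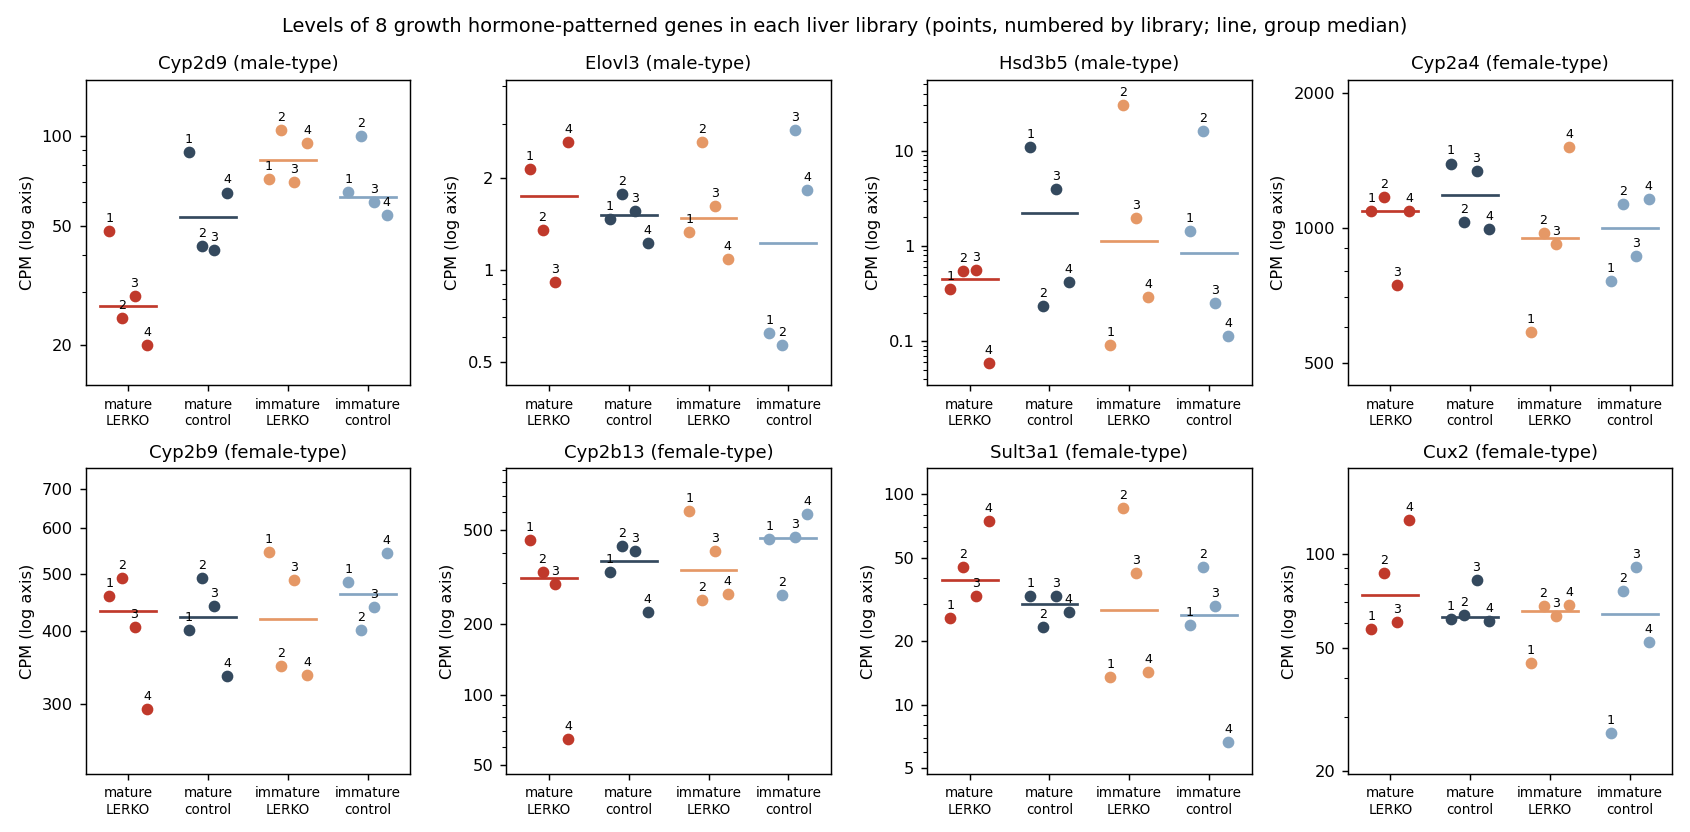
Each point is the level of a gene in 1 liver library (CPM, log axis), numbered by library, with the group median as a line, for the 8 genes that passed the filter on low counts. Cyp2d9 lay between 20 and 48.2 CPM in mature LERKO livers, below all 4 immature LERKO livers, while Hsd3b5 was at 30.3 CPM in immature LERKO library 2 and 0.092 CPM in immature LERKO library 1.

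Cyp2d9, a male-biased cytochrome P450 of steroid hydroxylation (chromosome 15, 82433437 to 82456845, forward strand, GRCm38), had 48.2, 24.7, 29.3 and 20 CPM in mature LERKO livers, against 88.4, 42.8, 41.6 and 64.7 CPM in mature controls. In immature LERKO livers it had 71.7, 105, 70.2 and 94.4 CPM, against 65.1, 99.8, 60.3 and 54.4 CPM in immature controls. The mature LERKO group held the 3 lowest of 16 libraries, and only its library 1 reached into the range of the mature controls. Mature LERKO livers averaged 30.5 ± 12.4 CPM and immature LERKO livers 85.4 ± 17.3 CPM (SD, n = 4 each), and these groups did not overlap. That fitted log2 fold change was -1.48 (SE 0.29, 95% interval -2.1 to -0.86, fold 0.358), the smallest p of all 13379 genes, at an adjusted p of 0.951 with edgeR. DESeq2 called it at an adjusted p of 0.00123 (log2 fold change -1.5) and limma-voom did not, at 0.768. Groups that do not overlap, with the mature LERKO libraries lower, were found for 0.635% of all tested genes. Cyp2d9 is 88.4% identical to its near copy Cyp2d10 over the transcript, and 71% of its 50-base words occurred in no other gene, so reads shared between copies could touch its count.

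The comparisons of mature LERKO livers with mature controls and with immature LERKO livers share the mature LERKO libraries. Against mature controls the log2 fold change of Cyp2d9 was -0.96 (SE 0.29, 95% interval -1.57 to -0.35), with an unadjusted p of 0.00436 and an adjusted p of 0.481 with edgeR. In immature livers the knockout difference was 0.29 (SE 0.28), and between the stages in controls it was -0.24 (SE 0.28). The difference of the knockout effects, mature minus immature, was -1.25 (SE 0.4, 95% interval -2.11 to -0.39) and did not pass either, at an adjusted p of 0.723 with edgeR. Library 4, the mature LERKO liver with the high acute-phase sum, was the lowest, and immature LERKO library 2, which lacked Xist, was the highest. Without mature LERKO library 4 the change between the stages in LERKO livers was -1.33, and without immature LERKO library 2 it was -1.37. Without the 3 libraries richest in muscle transcripts, mature control libraries 1 and 2 and immature LERKO library 4, the mature knockout difference was -0.8. The part of the acute-phase and muscle transcripts in these values was not tested further.

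Hsd3b5, a male-biased hydroxysteroid dehydrogenase (chromosome 3, 98618634 to 98630252, reverse strand), was the most variable of the 8 tested genes, with an SD of log2 CPM of 2.38 over the libraries, against 0.91 for Sult3a1, the next. Its lowest library holds 1 count and its highest 568. It had 0.355, 0.548, 0.558 and 0.0592 CPM in mature LERKO livers, against 10.9, 0.232, 3.98 and 0.421 CPM in mature controls. It had 0.092, 30.3, 1.95 and 0.294 CPM in immature LERKO livers, against 1.45, 16.3, 0.251 and 0.113 CPM in immature controls. All 4 mature LERKO livers were below 1 CPM, and each other group held both livers above and livers below that level, so the groups overlapped. Its coefficient of biological variation was 137%, exceeded by 35 genes (0.262% of those tested), against a common value of 21.2%. The fitted log2 fold changes were -3.26 (SE 1.79, adjusted p = 0.711) for mature LERKO against mature control and -4.34 (SE 1.78, adjusted p = 0.955) for mature against immature LERKO, with edgeR. The change between the stages in LERKO livers became -0.92 without immature LERKO library 2. In immature livers the knockout difference of 0.84 became -2.59 without that library and 3.72 without immature control library 2, so its sign rests on which of these livers is kept. The span of Zfp697 overlaps that of Hsd3b5 on the opposite strand, and Zfp697 had 10 to 35 counts per library. Its span also overlaps that of Hsd3b4, which had 0 counts in every library. Whether exons overlap was not examined. The strand setting of the counting is unknown, and whether Zfp697 reads entered the low counts of Hsd3b5 was not tested.

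Elovl3, a fatty acid elongase with male-biased expression in mouse liver (chromosome 19, 46131897 to 46135694, forward strand), was low and showed no such order. It averaged 1.75 ± 0.762 CPM in mature LERKO livers and 1.51 ± 0.227 CPM in mature controls. It averaged 1.66 ± 0.672 CPM in immature LERKO livers and 1.47 ± 1.09 CPM in immature controls (SD, n = 4 each). Its lowest and highest libraries, at 0.568 and 2.86 CPM, were both immature controls. Cyp4a12a, a male-biased fatty acid and arachidonic acid hydroxylase (chromosome 4, 115299046 to 115332815, forward strand), had 1 count in mature control library 2 and 1 in mature control library 4, and 0 in the other libraries. A count of 0 allows up to 0.126 to 0.178 CPM per library (3 counts, counting error only). Its near copy Cyp4a12b had 0 counts in all 16. Cyp4a12a failed the filter on low counts and was not tested.

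The female-type genes include a pair whose promoters are shown here because the levels of the genes ran in parallel across the livers. Cyp2b9 (chromosome 7, 26173411 to 26210661) and Cyp2b13 (chromosome 7, 26061497 to 26096197), both on the forward strand, are neighbouring female-biased cytochromes P450 of the Cyp2b family. In RefSeq's GRCm38.p6 the 250 bases before their starts, chr7:26173159-26173408 and chr7:26061245-26061494 (forward strand), share 248 bases (99.2%), and the capitals mark the 2 that differ, T48C and C104T, with the Cyp2b9 base first and positions counted from 1 at the 5′ end.
Cyp2b9: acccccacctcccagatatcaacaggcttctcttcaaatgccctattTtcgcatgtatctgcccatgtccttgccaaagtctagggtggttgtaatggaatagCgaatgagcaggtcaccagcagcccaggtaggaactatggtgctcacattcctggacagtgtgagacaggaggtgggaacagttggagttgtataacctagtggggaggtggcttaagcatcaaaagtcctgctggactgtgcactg
Cyp2b13: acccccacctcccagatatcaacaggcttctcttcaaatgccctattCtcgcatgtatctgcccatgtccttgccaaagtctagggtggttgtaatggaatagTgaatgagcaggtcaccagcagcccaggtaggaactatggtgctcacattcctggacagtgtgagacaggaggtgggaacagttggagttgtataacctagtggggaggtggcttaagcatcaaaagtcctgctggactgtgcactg
Promoters of the other member pairs were 34.2 to 52% identical. Over their transcripts Cyp2b9 and Cyp2b13 were 89.2% identical, and 88.8% of the 50-base words of Cyp2b9 and 72.7% of those of Cyp2b13 occurred in no other gene's transcript. Their counts are uncertain to the extent that the authors' counting, whose handling of shared reads was not given in the sources used here, could split such reads.

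Cyp2b9 had 459, 492, 406 and 293 CPM in mature LERKO livers, against 402, 492, 442 and 334 CPM in mature controls. It had 546, 348, 489 and 336 CPM in immature LERKO livers, against 486, 401, 439 and 545 CPM in immature controls. This was the steadiest of the 8 tested genes, with a 1.86-fold range and overlapping groups. Its knockout log2 fold changes were -0.02 (95% interval -0.42 to 0.38) in mature and -0.12 (95% interval -0.52 to 0.28) in immature livers. Cyp2b13 had 456, 333, 296 and 64.5 CPM in mature LERKO livers, against 333, 427, 407 and 224 CPM in mature controls. It had 607, 253, 410 and 269 CPM in immature LERKO livers, against 459, 266, 469 and 584 CPM in immature controls. Mature LERKO library 4, with the high acute-phase sum, was the lowest of 16 for both genes. The Cyp2b13 difference in mature livers was -0.27 (SE 0.43) with that library and 0.09 without it. Across the 16 libraries log2 CPM of the pair had a Pearson r of 0.87 and a Spearman rho of 0.85, and an r of 0.89 without that library. This is a description over libraries of 4 groups, and whether these near copies shared reads was not tested.

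Cyp2a4, a female-biased steroid hydroxylase of the P450 family (chromosome 7, 26307169 to 26315088, forward strand), had the highest level of the 9. It averaged 1020 ± 191 CPM in mature LERKO livers and 1190 ± 204 CPM in mature controls, and 996 ± 382 CPM in immature LERKO livers and 980 ± 198 CPM in immature controls (SD, n = 4 each). Its lowest library, at 584 CPM, and its highest, at 1510 CPM, were both immature LERKO livers. The knockout log2 fold changes were -0.21 (95% interval -0.72 to 0.3) in mature and 0.02 (95% interval -0.49 to 0.53) in immature livers. Its near copy Cyp2a5 is 84.8% identical over the transcript, and 62% of the 50-base words of Cyp2a4 occurred in no other gene, so its level is uncertain in the same way.

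Sult3a1, a female-biased sulfotransferase (chromosome 10, 33857721 to 33879532, forward strand), had 25.9, 45.1, 32.8 and 74.2 CPM in mature LERKO livers, against 32.8, 23.5, 32.8 and 27.6 CPM in mature controls. It had 13.6, 86.3, 42.2 and 14.4 CPM in immature LERKO livers, against 23.9, 45.2, 29.6 and 6.7 CPM in immature controls. The groups overlapped in both comparisons, and its highest libraries were immature LERKO library 2 and mature LERKO library 4. The knockout differences were 0.61 (SE 0.55) in mature livers, or 0.28 without mature LERKO library 4, and 0.57 (SE 0.56) in immature livers, or -0.18 without immature LERKO library 2. Its promoter (chr10:33857472-33857721, forward strand, RefSeq, GRCm38.p6) is shown because, of the 8 windows of 250 bases found for 7 of the 9 genes, it alone held matches to the motifs searched on both strands. The capitals mark TTCNNNGAA, the STAT5 element, 109 bases before the start, and ATTGAT, an HNF6 element, 74 bases before it.
Sult3a1: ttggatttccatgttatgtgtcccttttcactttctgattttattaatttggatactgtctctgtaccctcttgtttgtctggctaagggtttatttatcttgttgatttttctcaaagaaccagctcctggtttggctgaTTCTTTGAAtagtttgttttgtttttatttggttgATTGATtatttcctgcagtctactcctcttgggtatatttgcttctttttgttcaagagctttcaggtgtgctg
Among 32851 promoter windows of the same length, 7.02% held the STAT5 letters and 6.72% the HNF6 letters. A match of letters is a description and does not show binding. The windows follow RefSeq starts. Those of Cyp2d9 (chr15:82452127-82452376) and Hsd3b5 (chr3:98645535-98645784) lie away from the starts of the GENCODE spans given above, where no search was made.

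Cux2, a female-biased transcription factor that represses male-biased genes in mouse liver (chromosome 5, 121856366 to 122050102, reverse strand), had 57.5, 86.9, 60.6 and 129 CPM in mature LERKO livers, against 61.6, 63.5, 82.4 and 60.9 CPM in mature controls. It had 44.5, 67.9, 63 and 68.6 CPM in immature LERKO livers, against 26.6, 76, 91 and 52.1 CPM in immature controls. Mature LERKO library 4, with the high acute-phase sum, was the highest of 16, and immature control library 1 the lowest. The difference in mature livers was 0.31 (SE 0.31) with mature LERKO library 4 and 0.06 without it. In immature livers it was -0.01 (SE 0.31).

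**Figure D2:**
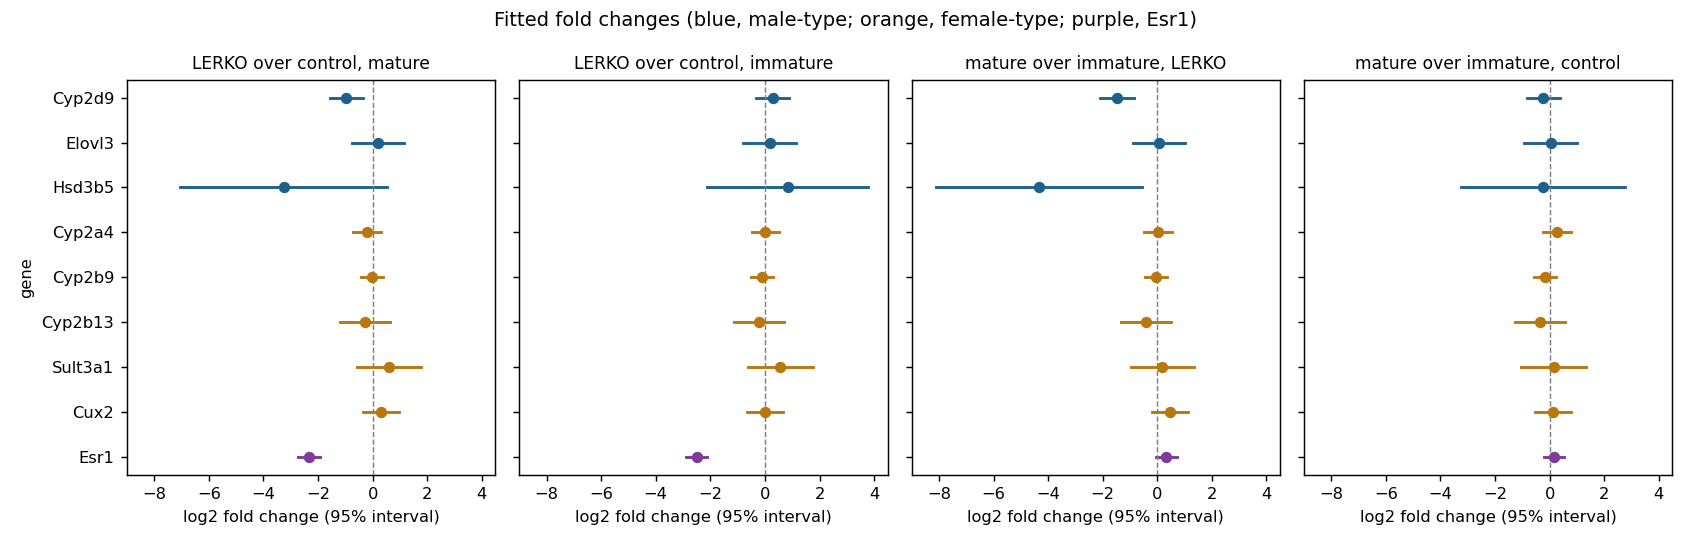
Fitted log2 fold changes (points) with 95% intervals (bars) of 8 genes and of Esr1 are drawn for the 4 comparisons between groups, male-type genes in blue, female-type genes in orange. The intervals of Cyp2d9 lie below 0 in the mature knockout comparison and in the comparison of stages in LERKO livers, and that of Hsd3b5 spans from -8.12 to -0.57 between the stages in LERKO livers.

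Counted over the members, 0 of 8 passed an adjusted p of 0.05 with edgeR in the mature knockout comparison, where 0.00747% of all genes did. In the immature knockout comparison 0 of 8 passed, also beside 0.00747% of all genes. In each of these comparisons that share is 1 gene, Esr1 itself. Between the stages 0 of 8 passed in LERKO livers and 0 of 8 in controls, each beside 0% of all genes. Averaged over both stages, 0 of 8 passed for the knockout (0.00747% of all genes, again Esr1 alone), and averaged over both genotypes 0 of 8 passed for the stage (0%). For the difference of the knockout effects 0 of 8 passed as well (0% of all genes). At an unadjusted p under 0.05, Cyp2d9 alone was lower in mature LERKO than in mature control livers (3.85% of all genes lower), and no member differed in immature livers (2.76% of all genes in either direction). Cyp2d9 and Hsd3b5 were lower in mature than in immature LERKO livers, beside 1.84% of all genes, and no member differed between the stages in controls, beside 9.84% in either direction. With limma-voom 0 members passed in any comparison. With DESeq2 only Cyp2d9 did, between the stages in LERKO livers, beside 6 of 13345 genes called. It also passed with DESeq2 for the stage averaged over genotypes (adjusted p = 0.0203), beside 29 of 13345 genes called. The median log2 fold change of the 5 female-type genes was -0.02, -0.01, 0.04 and 0.13 in the mature knockout, immature knockout, LERKO stage and control stage comparisons, against -0.01, 0.013, 0.002 and 0.015 over all genes. The 3 tested male-type genes have as their median the value of Cyp2d9 in each of these comparisons, and Elovl3 was at 0.21, 0.17, 0.07 and 0.04 in the same order.

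**Figure D3:**
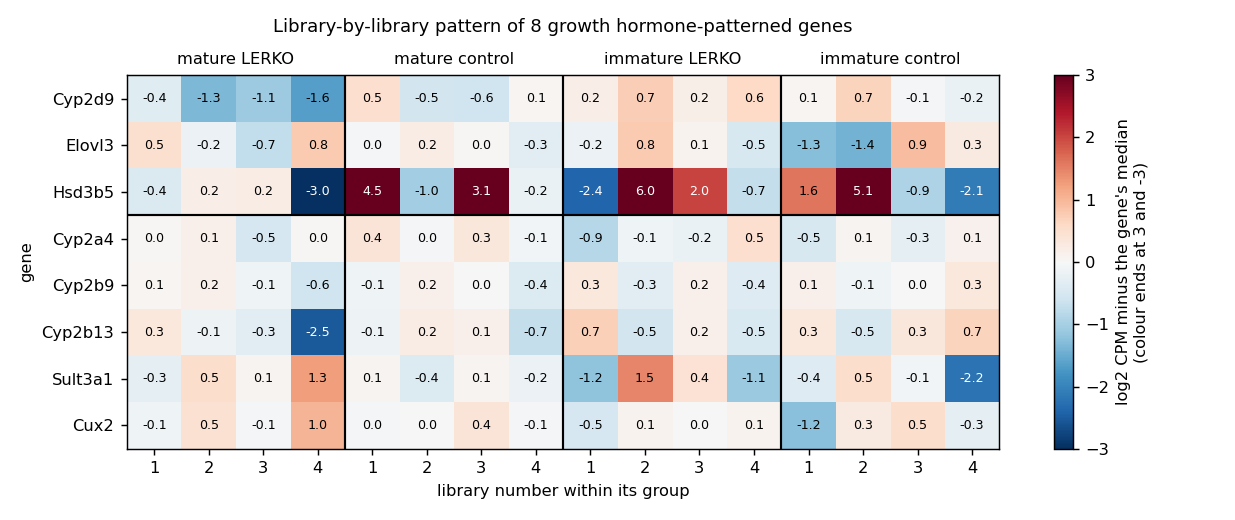
Each cell gives log2 CPM of a gene in a library minus that gene's median over 16 libraries, with libraries in columns by group and the male-type genes above the female-type genes. Mature LERKO library 4 is low for Cyp2d9, Hsd3b5 and Cyp2b13 and high for Cux2 and Sult3a1, and library 2 of both immature groups is high for Hsd3b5.

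Across the livers, male-type and female-type genes did not simply mirror each other. Immature LERKO library 2, the liver without Xist, was the highest of 16 for Cyp2d9 and Hsd3b5, which are male-type, and also for Sult3a1, which is female-type, while it ranked only 13 and 14 for Cyp2b9 and Cyp2b13. Hsd3b5 and Sult3a1 had a Pearson r of 0.52 over the 16 libraries, Cyp2d9 and Hsd3b5 an r of 0.54, Cyp2b13 and Sult3a1 an r of -0.62, and Cyp2b13 and Cux2 an r of -0.62. Elovl3, the other tested male-type gene, had an r of -0.22 with both Cyp2d9 and Hsd3b5. Among the female-type genes, Cyp2b9 also had a negative r with Sult3a1 (-0.53) and Cux2 (-0.51), and Cyp2a4 with Cyp2b9 (-0.35) and Cyp2b13 (-0.26), while Sult3a1 and Cux2 had an r of 0.51, Cyp2a4 and Cux2 an r of 0.45 and Cyp2a4 and Sult3a1 an r of 0.05. Without mature LERKO library 4 the r of Cux2 was -0.37 with Cyp2b13 and -0.32 with Cyp2b9, and that of Sult3a1 was -0.58 with Cyp2b13 and -0.41 with Cyp2b9. In the same setting the r of Hsd3b5 was 0.46 with Cyp2d9 and 0.73 with Sult3a1, immature LERKO library 2 being kept. These are descriptions over libraries of 4 groups, with no test.

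The genes whose log2 CPM followed each member most closely over the 16 libraries, outside the members and their near copies, were found by Pearson r. Hsd3b5 was matched by Slco1a1, a male-biased organic anion transporter, at r = 0.93 (Spearman rho 0.87). Slco1a1 had 18.3, 62, 10.1 and 19.7 CPM in mature LERKO livers, against 187, 11.3, 93.4 and 22 CPM in mature controls. It had 4.37, 318, 67.3 and 19.8 CPM in immature LERKO livers, against 56.6, 267, 8.04 and 5.96 CPM in immature controls. The livers high for Hsd3b5, immature LERKO library 2, immature control library 2 and mature control libraries 1 and 3, were the 4 highest for Slco1a1 too, including livers of all but the mature LERKO group. Cyp2b13 was matched by Car3, a carbonic anhydrase, at r = 0.96 (0.89 without mature LERKO library 4, where Car3 was at 90.3 CPM). Cux2 was matched by the female-biased gene A1bg at r = 0.87 (0.81 without that library), and Cyp2b9 by Alad, a haem synthesis enzyme, at r = 0.92. Cyp2d9 was matched by the lincRNA Gm30931 (r = 0.92), Cyp2a4 by Wnt9b (0.84), Sult3a1 by Carmil1 (0.86) and Elovl3 by Triap1 (0.81). Gm30931 (0.237 to 1.71 CPM) and Wnt9b (0.276 to 1.88 CPM) rest on few counts. Each match is the highest r of a search through the tested genes over only 16 libraries. A high r therefore comes with the search itself, and shared regulation was not tested.

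**Figure D4:**
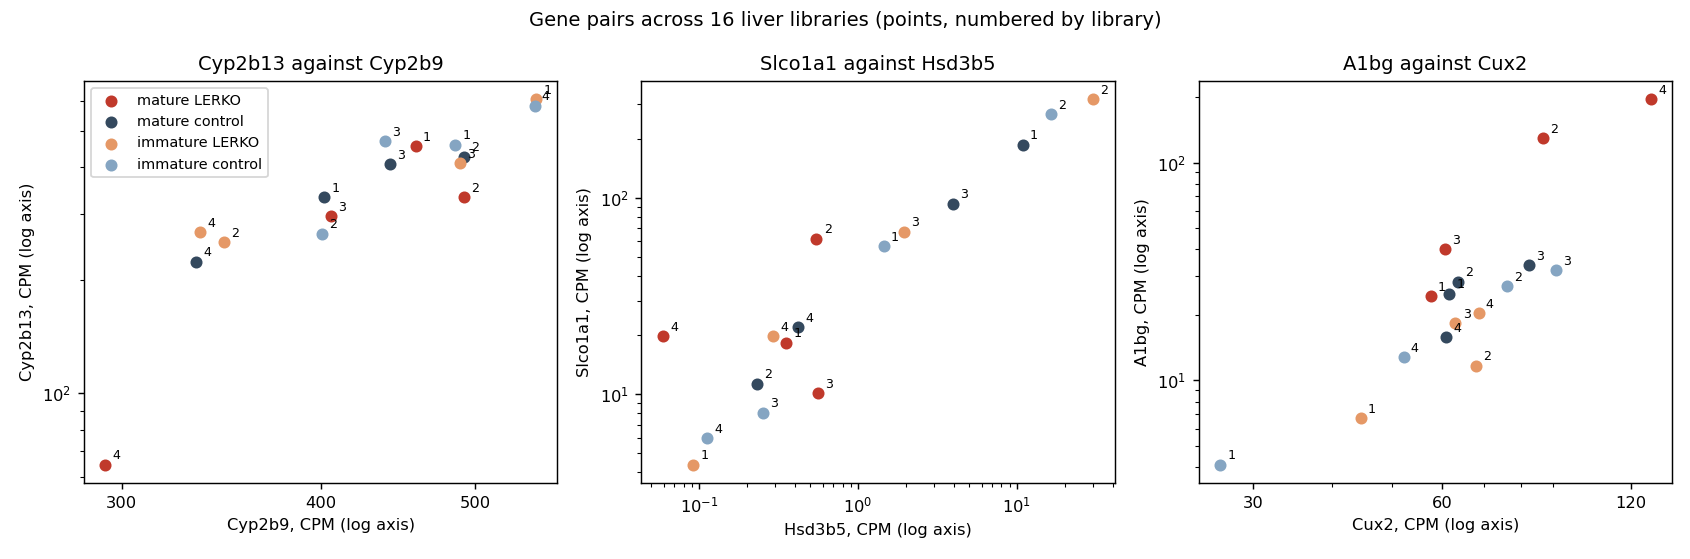
Each point is 1 of 16 liver libraries, numbered within its group, with CPM of Cyp2b13 against Cyp2b9, Slco1a1 against Hsd3b5 and A1bg against Cux2 on log axes. The points of the Hsd3b5 panel run from 0.0592 to 30.3 CPM with libraries of several groups at both ends, and mature LERKO library 4 lies at an end of each panel's range for Cyp2b9, Cyp2b13, Hsd3b5, Cux2 and A1bg.

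The wider growth hormone pathway was described over lists of known genes, in which 0 genes passed an adjusted p of 0.05 with edgeR in either direction in any of the 4 group comparisons. Of 13 tested other male-biased genes (20 listed), 4 had a positive log2 fold change for mature LERKO against mature control and 12 for immature LERKO against immature control, with medians of -0.12 and 0.28. Over all tested genes 48.2% and 53.2% were positive in these comparisons. Between the stages in LERKO livers 2 of the 13 were positive (median -0.49), against 50.4% of all genes. Of 28 other female-biased genes, 20 were positive in mature and 9 in immature knockout comparisons, with medians of 0.29 and -0.19. At an unadjusted p under 0.05, 5 of these 28 were higher and 0 lower in mature LERKO livers, beside 3.45% of all genes higher. These 5 were the P450 genes Cyp3a16, Cyp3a41a and Cyp3a41b, whose reads may be shared between copies, the sulfotransferase Sult3a2, and A1bg. Each was highest of 16 in mature LERKO library 4, at 202, 358, 14.1, 8.94 and 195 CPM in that order. All 15 acute-phase genes had an unadjusted p under 0.05 in the same direction in this comparison, which rests on that library. Without it, a setting added after the data were seen, 6 of the 28 were higher beside 5.35% of all genes. In that setting 21 were positive, beside 49.5% of all genes, and 2 of the 15 acute-phase genes were higher. In the same setting Cyp3a16 was at a log2 fold change of 3.1 in place of 4.69, Cyp3a41b at 2.61 in place of 4.65 and A1bg at 1.37 in place of 1.92. Sult3a2 was at 1.64 in place of 3.17. Cyp3a41a was at 1.81 in place of 2.55, and its unadjusted p was then 0.0977 with edgeR. Of the other male-biased genes, 4 of 14 tested were positive in that setting, with a median of -0.4. Of the most abundant listed male-biased genes, Mup3, a major urinary protein, averaged 2080 ± 974 CPM in mature LERKO and 3100 ± 1330 CPM in mature control livers, and Egfr, the epidermal growth factor receptor, 333 ± 177 CPM in mature LERKO and 241 ± 91.7 CPM in mature control livers. Of the female-biased ones, Cyp4a14, a fatty acid hydroxylase, averaged 528 ± 402 CPM in mature LERKO and 376 ± 230 CPM in mature control livers, and Hamp2, a hepcidin gene, 421 ± 288 CPM in mature LERKO and 681 ± 140 CPM in mature control livers (SD, n = 4 each). Of the near copies of members, the most abundant were Cyp2a5, at 1460 ± 623 CPM in mature LERKO and 1880 ± 497 CPM in mature control livers, and Cyp2d26, at 1080 ± 136 CPM in mature LERKO and 1020 ± 90.3 CPM in mature control livers.

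Of the 24 genes of growth hormone signalling, 17 were positive for mature LERKO against mature control (median 0.22), beside 48.2% of all genes. For immature LERKO against immature control 11 were positive (median -0.06), beside 53.2% of all genes. At an unadjusted p under 0.05, 4 were higher in mature LERKO livers, beside 3.45% of all genes, and 0 in immature LERKO livers, beside 1.86%. The 4 were Stat3, the feedback inhibitor Socs3, Igfals, a carrier of Igf1, and the transcription factor Onecut2. Stat3, Socs3 and Igfals were highest of 16 in mature LERKO library 4, at 169, 58.2 and 241 CPM. Without that library 3 of the 24 were higher, beside 5.35% of all genes, and 20 were positive, beside 49.5%. The unadjusted p of Stat3, Socs3 and Igfals was then 0.0984, 0.0844 and 0.052 with edgeR. Onecut2 was at a log2 fold change of 0.67 there, in place of 0.62, with an unadjusted p of 0.00114 with edgeR. The most abundant were Hnf4a, a hepatocyte transcription factor, at 929 ± 163 CPM in mature LERKO and 798 ± 126 CPM in mature control livers, and Igf1, the hormone's main secreted product, at 726 ± 67.7 and 654 ± 62.2 CPM in these groups (SD, n = 4 each). In immature livers Igf1 averaged 633 ± 108 CPM in LERKO and 697 ± 55.1 CPM in control mice. The log2 fold change of Igf1 was 0.15 (95% interval -0.12 to 0.42) in mature and -0.14 (95% interval -0.41 to 0.13) in immature livers. The receptor Ghr and Stat5b, chosen after their values were seen for their place in the pathway, had knockout differences of -0.22 (95% interval -0.45 to 0.02) and -0.1 (95% interval -0.37 to 0.17) in mature livers.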

How the data were processed

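Per the labels' protocols, DNase-treated total liver RNA was made into stranded libraries and sequenced from both ends. The submitters' processing notes name STAR, limma, R 4.05 and the build mm10. What each was used for, the counting tool, its annotation and its strand setting were not given in the sources used here. Deposited by the authors are counts per gene, with 10 values in 2 predicted genes that are not whole, best described as estimated counts in the deposited columns and rounded here. Totals were 18123974 to 23213905 per library. Genes kept by filterByExpr (minimum count 10, minimum total 15; 13379 genes) were scaled by TMM (0.852 to 1.07) and tested with edgeR 4.0.16's quasi-likelihood test, all 16 libraries in 1 fit with a coefficient per group, Benjamini-Hochberg over all tested genes, threshold 0.05. Standard errors are the fold change over the square root of F. Correlations use log2 CPM with prior count 2. DESeq2 1.42.0, limma 3.58.1 (voom), other scalings and filters and each library left out were alternatives. The members, lists, tests and naming rule were chosen with earlier results of these data known; named are all 9 members, each member's closest gene and each list's 2 most abundant genes where none passed. Positions are from GENCODE vM21 on GRCm38, and promoters from RefSeq. Code was tested on simulated counts. Replicates are separate mice per the labels, and intervals cover the spread between them.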

Additional observations from a re-analysis of the deposited data

Results flagged for a closer look

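On CPM, in 3 of 36 groups of 4 libraries examined (the 8 tested members and Esr1), a single library's gap to the other 3 exceeded 0.829 of the group's range, Dixon's critical value. Chance gives this in about 1 in 20 groups of normally distributed values, which the CPM of Hsd3b5 do not resemble. On log2 CPM the gap was 0.473 and 0.487 of the range for the Hsd3b5 groups, under that value, and 0.86 for Cux2. Hsd3b5 had 30.3 CPM in immature LERKO library 2, where the next was 1.95 CPM, and this is also the library without Xist. Hsd3b5 had 16.3 CPM in immature control library 2, where the next was 1.45 CPM. Cux2 had 82.4 CPM in mature control library 3, where the next was 63.5 CPM. No member's difference of knockout effects between the stages passed an adjusted p of 0.05 with edgeR.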

How the results depend on the processing

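No paired analysis was possible because the replicate numbers are accession order only. Over settings other than leaving out a library, 457 of 480 values kept their direction and their side of the threshold, 21 changed sign and 2 passed only there; over leaving out each library, 833 of 896 kept them and 63 changed sign. With DESeq2 Cyp2d9 passed between the stages in LERKO (-1.5) and averaged over genotypes (-0.88), 1 member each, and it called 18, 13, 6, 74, 3, 29 and 22 genes in the mature knockout, immature knockout, LERKO stage, control stage, mean knockout, mean stage and difference comparisons, against 1, 1, 0, 0, 1, 0 and 0 with edgeR. With the compared groups alone, 6 genes passed between the stages in controls. Signs turned, always in values whose intervals span 0, with limma-voom for Cyp2a4 (-0.03) and Cux2 (0.11) in the immature knockout comparison, Hsd3b5 between control stages (0.49) and Elovl3 in the difference (-0.31). With library size alone they turned for Cux2 in the immature knockout comparison (0.04), Cyp2a4 between LERKO stages (-0.01) and Elovl3 (-0.11), Cyp2b9 (-0.01) and Sult3a1 (-0.09) in the difference. With a filter of 1 CPM in 4 libraries Cux2 in the immature knockout comparison was 0.01, and with the compared groups alone Cyp2b9 in the mature one was 0.01. Without the 3 libraries richest in muscle transcripts, chosen after seeing the data, they turned for Cyp2b9 (0.09) in the mature and Cyp2a4 (-0.25) in the immature knockout comparison, Elovl3 and Sult3a1 between LERKO stages (-0.1 each), Elovl3 between control stages (-0.09), Cyp2b9 in the mean knockout (0.03), Elovl3 in the mean stage (-0.1), and Elovl3 (-0.01), Cyp2a4 (0.06) and Sult3a1 (-0.29) in the difference. The cause was not tested.

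Leaving out each library in turn gave, in the mature knockout comparison, 1 to 2 genes called, Elovl3 -0.01 to 0.43, Cyp2b9 -0.11 to 0.15 and Cyp2b13 -0.59 to 0.09. In the immature one it gave Elovl3 -0.13 to 0.73, Hsd3b5 -2.59 to 3.72, Cyp2a4 -0.25 to 0.21, Sult3a1 -0.18 to 0.96 and Cux2 -0.26 to 0.24. Between LERKO stages it gave 0 to 1 genes, Elovl3 -0.18 to 0.37, Cyp2a4 -0.15 to 0.31, Cyp2b9 -0.16 to 0.08 and Sult3a1 -0.17 to 0.93. Between control stages it gave 0 to 1 genes, Elovl3 -0.23 to 0.58, Hsd3b5 -1.55 to 2.64, Sult3a1 -0.17 to 0.54 and Cux2 -0.12 to 0.37. In the mean knockout it gave Hsd3b5 -2.93 to 0.23 and Cyp2b9 -0.14 to 0.02, and in the mean stage Elovl3 -0.08 to 0.32 and Sult3a1 -0.02 to 0.54. In the difference it gave Elovl3 -0.52 to 0.34, Cyp2a4 -0.41 to 0.03, Cyp2b13 -0.38 to 0.28 and Sult3a1 -0.35 to 0.79. Cyp2d9 kept its sign throughout the mature knockout (-1.27 to -0.7) and LERKO stage (-1.79 to -1.33) comparisons. Hsd3b5 and Elovl3 rest on few counts.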

Other observations

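Cish and Socs2, feedback inhibitors that growth hormone induces through Stat5b, and Onecut1, the transcription factor HNF6, varied together from liver to liver. These genes are from the signalling list and were singled out after their values were seen. Cish had 27.5, 22.6, 118 and 23.5 CPM in mature LERKO livers, against 21.2, 10, 6.34 and 88 CPM in mature controls. It had 11, 58.6, 13.9 and 8.67 CPM in immature LERKO livers, against 9.95, 49.7, 25.8 and 23.1 CPM in immature controls. A single liver was high in each group, mature LERKO library 3, mature control library 4, immature LERKO library 2 and immature control library 2, and Socs2 was highest in its group in the same livers, at 129, 49.3, 93.6 and 58.7 CPM. Onecut1 was too, at 212, 106, 128 and 46.8 CPM. Over the 16 libraries log2 CPM of Cish had an r of 0.91 with Onecut1 and 0.81 with Socs2. Hsd3b5 was high in the 2 immature livers among these but at 0.558 and 0.421 CPM in the mature ones, and its r was 0.18 with Cish and 0.42 with Socs2 (0.02 and 0.25 without immature LERKO library 2).

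Sult3a2, a near copy of Sult3a1 on chromosome 10 that was singled out after its values were seen, had 1.32, 1.01, 0.659 and 8.94 CPM in mature LERKO livers, against 0.254, 0.558, 0.268 and 0.21 CPM in mature controls. In immature LERKO livers it had 0.46, 0.533, 1.23 and 0.245 CPM, against 0.0518, 0.103, 0.151 and 0.0567 CPM in immature controls. The groups did not overlap at either stage, with LERKO livers higher, as for 1.61% of all tested genes in mature and 0.957% in immature livers. The log2 fold changes, 3.17 (SE 0.76) and 2.65 (SE 1.04), did not pass, at adjusted p = 0.481 and 1 with edgeR. Without mature LERKO library 4, the library with the high acute-phase sum, the mature one was 1.64 (SE 0.48), and the immature control libraries hold few counts.

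In immature LERKO library 2, where Xist was at 0.48 CPM, 4 X-linked genes chosen after their values were seen stood below the other 15 libraries: Kdm6a at 10.9 CPM against 15.2 to 21.2, Eif2s3x at 22.8 against 31 to 46.3, Kdm5c at 48.3 against 58.4 to 85.9, and Pbdc1 at 4.27 against 5.44 to 8.06. Ddx3x, at 172 CPM, lay within their range of 156 to 263. Over all 388 tested X-linked genes the median log2 difference of this library from the others was -0.04. Mature LERKO library 2 and immature LERKO library 3 had the same median, and immature control library 4 was at -0.06. By this median X-linked genes as a whole were not set apart in immature LERKO library 2. A median over all X-linked genes does not measure the number or state of the X chromosomes, which was not tested.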
